A study of Homo sapiens with 8 samples.

Results

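The ARF small GTPases examined here are ARF1, ARF3, ARF4, ARF5 and ARF6, the 5 human genes that carry the ARF name itself, out of 19305 transcript accessions counted in each library. The family was chosen by a measured value: ARF5 stood in H9 cells with eIF2A shRNA at 33.9% of its control level. The changes of the members with knockdown in H9, their differences from HEK293T, and every H9 level of ARF5 are therefore given as a description without a test. All 5 members passed the filter on low counts and were among the 14565 genes tested, with 1637 to 47676 reads per member and library.

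Polyadenylated RNA was sequenced from 8 libraries in 4 groups of 2. HEK293T, an established line from human embryonic kidney, received sodium arsenite, which causes oxidative stress, together with siRNA, either a control or one directed at eIF2A, an initiation factor that can deliver initiator tRNA to the ribosome. H9, an established line of human embryonic stem cells, carried shRNA, again a control or one directed at eIF2A, and its labels name no arsenite. No HEK293T group went without arsenite, and neither the dose and time of arsenite nor the number of siRNA or shRNA sequences is given in the sources used here. The labels number the libraries of a group as sets, do not say what a set is and do not name separate cultures. The p-values below hence rest on the spread between libraries that may be technical replicates.

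ARF proteins are small GTPases that are loose in the cytosol with GDP and bind membranes with GTP. Exchange factors load them with GTP, GTPase-activating proteins switch them off, and in the active state they gather coat complexes, clathrin adaptors, lipid-modifying enzymes and tethers on Golgi and endosome membranes. ARF1 and ARF3 form class I and act mainly at the Golgi, ARF4 and ARF5 form class II and act in the early secretory pathway, and ARF6, the only class III member, acts at the plasma membrane and on endosomes.

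The coding sequences are shown because their base differences let reads of such alike proteins be told apart even there. Noncoding parts, from 560 bases in ARF5 to 3559 in ARF3, were longer than the coding part in every member. The 51 bases below encode the same 17 residues of the nucleotide-binding loop in every member. They start at codon 24, or at codon 20 in ARF6, and are read from GENCODE 29 transcripts, with a G or C at the third base of a codon in capitals.
ARF1: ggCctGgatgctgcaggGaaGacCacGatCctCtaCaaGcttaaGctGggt
ARF3: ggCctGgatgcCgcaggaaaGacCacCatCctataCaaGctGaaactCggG
ARF4: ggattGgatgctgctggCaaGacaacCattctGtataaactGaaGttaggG
ARF5: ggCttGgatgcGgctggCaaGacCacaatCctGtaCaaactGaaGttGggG
ARF6: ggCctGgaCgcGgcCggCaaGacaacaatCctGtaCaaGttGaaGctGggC
In this window ARF5 differed from ARF4, its class II partner, at 7 bases, all 7 of them at the third base of a codon. It differed from ARF1 and from ARF3 at 10 bases each and from ARF6 at 8. The largest distance was between ARF1 and ARF4, at 14 bases. Of the 17 codons, 8 ended in G or C in ARF4, 12 in ARF1 and in ARF3, 13 in ARF5 and 15 in ARF6. No run of 50 bases was shared between the transcripts of any 2 members.

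Whole transcripts of the members differed more in composition than this loop does. The coding part held 528 to 546 bases in every member, whereas the transcript measured 1103 bases in ARF5, 1660 in ARF4, 2006 in ARF1, 3865 in ARF6 and 4105 in ARF3. ARF5 was thus the shortest, and it was also the richest in G and C, at 60.9% of bases against 55.7% in ARF1, 52.5% in ARF3, 42.7% in ARF6 and 40.9% in ARF4. ARF6 combined a coding part with 55.9% GC with a transcript at 42.7%. The H9 changes are set against both properties below.

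Some reads of the members could be shared with other genes. Of the 50-base runs of the ARF5 transcript, 23.53% also occur in transcripts of FSCN3 or GCC1, which lie beside it, and 14.92% of those of ARF3 and 1.99% of those of ARF4 recur in transcripts of other genes, against 0% for ARF1 and ARF6. The strand setting of the count is not given, so ARF3 cannot be fully separated from FKBP11, ARF4 from PDE12, ARF1 from MIR3620 or ARF5 from 2 overlapping long noncoding RNAs. FSCN3 had at most 5 counts in any library, and GCC1, a Golgi tether, held 384 to 607. In H9, GCC1 moved the other way from ARF5, with a log2 fold change of 0.19 ± 0.076 (SE, adjusted p = 0.026, edgeR quasi-likelihood test), a call lost in a fit that removes the trend of each library on transcript GC content and length (0.16, adjusted p = 0.079).

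Gene counts per library ran from 21837052 to 32318668. EIF2A, the targeted transcript, is given in CPM, the reads of a gene per 1000000 counted reads, with TMM factors applied to the totals. It read 17.47 and 18.32 CPM with control siRNA against 5.58 and 5.98 with eIF2A siRNA, and 15.81 and 14.76 CPM with control shRNA against 5.03 and 4.67 with eIF2A shRNA. It fell by 1.63 ± 0.095 on the log2 scale in HEK293T and fell by 1.66 ± 0.11 in H9 (SE, adjusted p = 6.6e-15 and 2.3e-15, edgeR). With that trend removed the H9 value was -2.35, or 19.7% of control instead of 31.7%, and the changes then differed between the lines by -0.68 (adjusted p = 0.00030). All 10 pluripotency genes listed, NANOG and DPPA4 among them, reached 1 CPM in both libraries of each H9 group, against 2 of 10 in HEK293T, where NANOG, DPPA4, CRIPTO and L1TD1 had no reads.

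Levels of the members are compared with each other per kilobase of transcript (CPM per kb). In the HEK293T controls ARF1 led at 761.7 ± 21.1 CPM per kb (SD, n = 2), followed by ARF5 at 224.3 ± 5.10, ARF4 at 93.69 ± 1.92, ARF3 at 89.81 ± 0.308 and ARF6 at 25.27 ± 0.819. With eIF2A siRNA the order was the same, with ARF1 at 768.0, ARF5 at 226.4, ARF4 at 98.26, ARF3 at 90.0 and ARF6 at 26.3 CPM per kb. Both libraries of each member lay clear of the next member in this order, although ARF4 exceeded ARF3 by a ratio of only 1.04 in the controls.

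In H9 the ranks were different. The control order was ARF1 at 369.7 ± 0.55, ARF5 at 334.8 ± 6.86, ARF3 at 241.3 ± 0.927, ARF4 at 98.72 ± 0.404 and ARF6 at 24.33 ± 0.0348 CPM per kb (SD, n = 2). With eIF2A shRNA ARF5 moved from the second place to the third, at 113.4 ± 1.02, behind ARF1 at 309.1 ± 1.54 and ARF3 at 169.3 ± 2.07 and just above ARF4 at 108.9 ± 1.98, with ARF6 last at 17.59 ± 0.523. Neighbours did not overlap here either, and the ratio of ARF5 to ARF4 was 1.04. The order depends on the transcript length used: with the median length of each gene's protein-coding transcripts, chosen after the data had been seen, ARF3 stood at 533.2 CPM per kb in the HEK293T controls and 1433 in the H9 controls, where it then led.

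**Figure D1:**
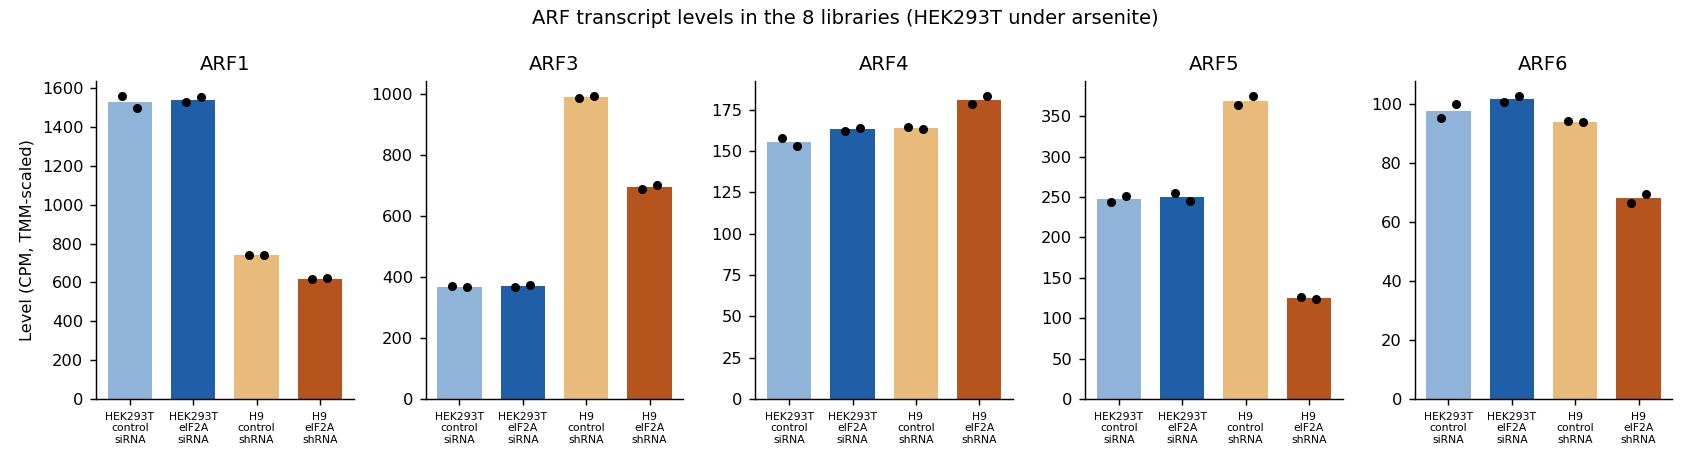
Level of each ARF member in the 8 libraries, in CPM on a linear axis that starts at 0 for each gene; points are libraries and bars are group means of 2. The ARF5 bars with eIF2A shRNA in H9 sit at 125.1 CPM against 369.3 in the H9 controls, while the HEK293T libraries lie between 243 and 254.

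Knockdown of eIF2A in arsenite-treated HEK293T cells changed none of the members past the threshold. ARF1, which recruits the COPI coat at the Golgi, read 1558 and 1498 CPM with control siRNA and 1526 and 1555 with eIF2A siRNA, so the groups overlapped. ARF3, its class I partner, read 370 and 368 CPM and then 366 and 373, again overlapping. The log2 fold changes were 0.01 ± 0.029 for ARF1 and 0.003 ± 0.031 for ARF3 (SE).

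In the class II pair, the groups overlapped for ARF5 and not for ARF4. ARF5 read 243 and 251 CPM with control siRNA and 254 and 245 with eIF2A siRNA, a log2 fold change of 0.01 ± 0.033. ARF4 read 158 and 153 CPM and then 162 and 164, and both siRNA libraries lay above both controls, by 0.07 ± 0.035. ARF6 read 95.4 and 99.9 CPM and then 101 and 103, also without overlap, by 0.06 ± 0.041. Groups without overlap are common in this comparison, at 58.8% of all genes tested.

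The adjusted p-values in HEK293T were 0.82 for ARF1, 0.98 for ARF3, 0.14 for ARF4, 0.84 for ARF5 and 0.35 for ARF6 (edgeR quasi-likelihood test, Benjamini-Hochberg over 14565 genes). Thus 0 of 5 members were called in edgeR, where 28.7% of all genes tested were called. DESeq2 and limma-voom called 0 as well, and 0 members had an unadjusted p under 0.05. Without HEK293T control replicate 1, ARF4 alone passed, at 0.09 (adjusted p = 0.043, edgeR).

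The H9 values follow as a description, because they chose the members. ARF5 read 364 and 375 CPM with control shRNA and 126 and 124 CPM with eIF2A shRNA. Both shRNA libraries were far below both controls and within 1.29% of each other. The log2 fold change was -1.56 ± 0.035 (SE), which leaves 33.9% of the control level. Of all 14565 genes tested, 68, or 0.467%, had a log2 fold change in H9 at or below that of ARF5, with ARF5 among them.

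ARF4, the other class II member, stood on the opposite side. It read 164 and 163 CPM with control shRNA and 179 and 183 with eIF2A shRNA, a log2 fold change of 0.14 ± 0.036, or 110% of control. Both shRNA libraries lay above both controls. The sign depends on the scaling: with DESeq2's size factors the value was -0.02, while the median over all genes tested moved from 0.02 to -0.13.

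Class I members were lower with shRNA, by less than ARF5. ARF1 read 741 and 742 CPM with control shRNA and 618 and 622 with eIF2A shRNA, 83.6% of control (-0.26 ± 0.030). ARF3 read 988 and 993 CPM and then 689 and 701, 70.1% of control (-0.51 ± 0.030). For both genes the shRNA libraries lay below both controls with a gap many times the distance between replicates.

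ARF6, the plasma membrane member, read 94.1 and 94.0 CPM with control shRNA and 66.6 and 69.4 with eIF2A shRNA, 72.3% of control (-0.47 ± 0.045). Both shRNA libraries were lower than both controls. None of the 5 members overlapped between the H9 groups, and the same was true of 84.9% of all genes tested, so the lack of overlap says nothing about this family. At an adjusted p under 0.05, 71.3% of all genes tested were called in H9.

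**Figure D2:**
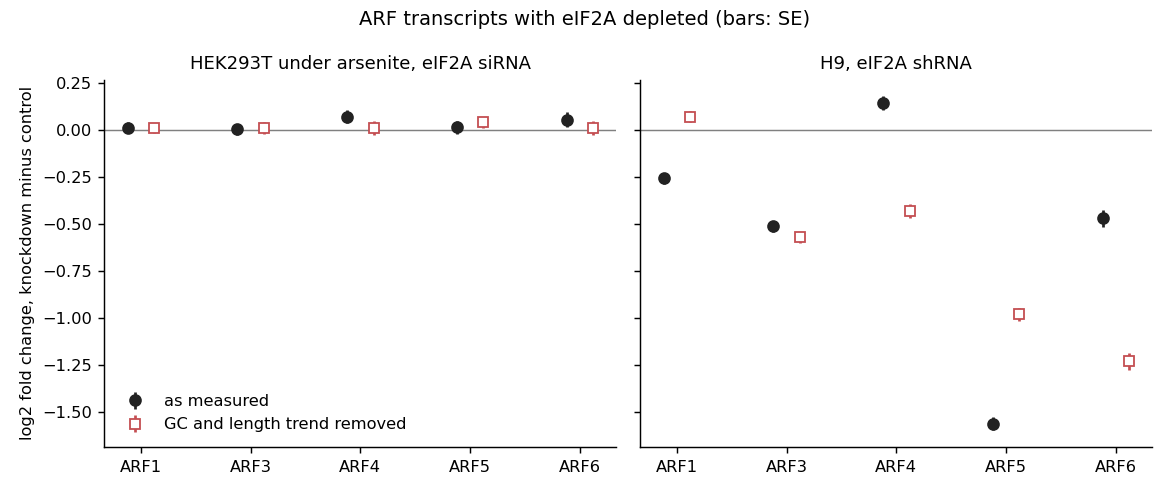
Log2 fold change of each ARF member with eIF2A knockdown in HEK293T under arsenite and in H9, as measured and with the trend on GC content and length removed; points are estimates and bars are standard errors. The HEK293T points lie between 0.003 and 0.07, and in H9 ARF5 lies at -1.56, or -0.98 with the trend removed.

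The difference of the knockdown changes, H9 minus HEK293T, was -1.57 for ARF5, -0.52 for ARF6, -0.51 for ARF3, -0.27 for ARF1 and 0.07 for ARF4 on the log2 scale. It is given without a test for the same reason as the H9 values. In all, 58.1% of the genes tested were called in this comparison.

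Other measures moved with the H9 groups. The share of listed reads that fell on no counted feature was 20.84% and 20.63% with eIF2A shRNA and 18.84% and 18.39% with control shRNA. The summed level of 8 neural markers was 361 to 377 CPM in the controls and 182 to 183 with shRNA, with 4 of 8 at 1 CPM or more in every H9 library and NEUROD1 without reads. Most of that sum was TUBB3, at 344 and 360 CPM against 164 and 165, whereas MAP2 (8.72 and 8.24 against 10.4 and 11) and DCX (0.606 and 0.938 against 2.67 and 1.78) were higher with shRNA. The 6 fibroblast markers summed to 974 to 980 and 842 to 856 CPM, with 3 of 6 at 1 CPM or more in every H9 library, and DCN and LUM without reads in the controls. Most of this sum was THY1, which was lower with shRNA, at 788 and 794 against 592 and 594 CPM. COL1A1 (88.7 and 87.7 against 118 and 124) and COL1A2 (96.1 and 97.8 against 132 and 138) were higher. Pluripotency genes summed to 6320 to 6330 and 5870 to 5960 CPM, trophoblast markers to 25.6 to 26.3 and 16.2 to 16.9, and mesoderm and endoderm markers to 6.06 to 6.86 and 4.16 to 5.06. The part of these measures in the ARF values was not tested. In such bulk libraries, fewer cells of a type and less RNA per cell cannot be told apart.

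The H9 change of a gene went with the composition of its transcript. Across 14489 genes the Spearman correlation of the H9 log2 fold change was -0.68 with GC content and 0.44 with length, and in HEK293T it was -0.10 and -0.09. These are correlations across genes that share the same libraries, so genes are not independent replicates. GC-rich and short transcripts were thus lower in the shRNA libraries, and ARF5 is both.

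**Figure D3:**
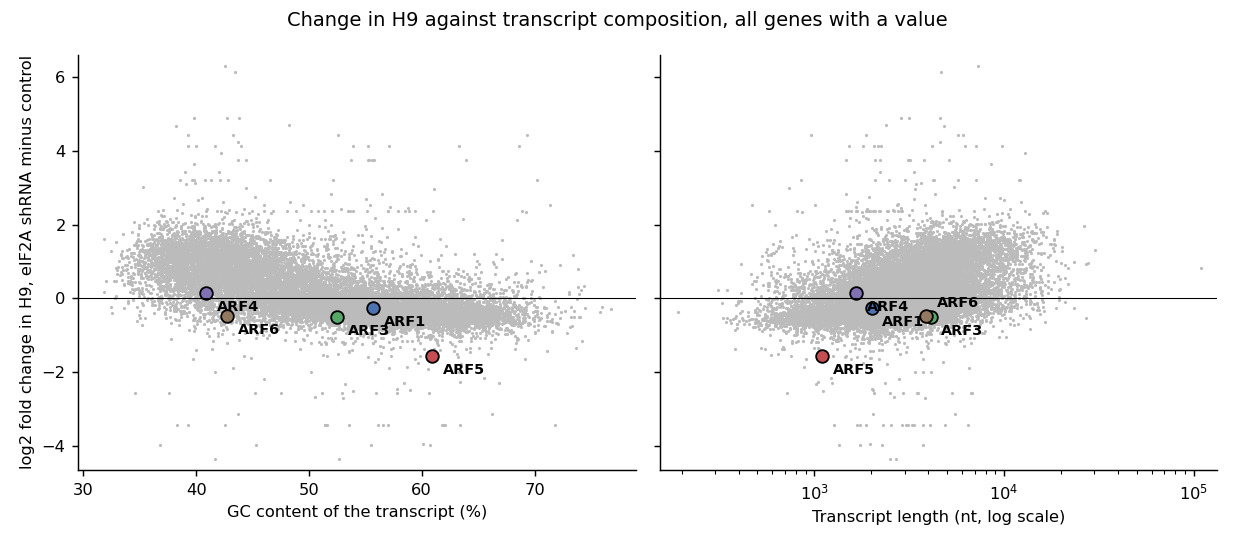
Log2 fold change in H9 (eIF2A shRNA minus control) of 14489 genes against the GC content of the transcript in percent and against its length in bases on a log axis; grey points are genes and coloured points the 5 ARF members. The cloud slopes down with GC content. ARF5 lies at its lower edge at 60.9% GC and -1.56, as does ARF6 at 42.7% GC.

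Genes of like composition were therefore set beside each member: those within 2 percentage points of its GC content and 20% of its length, with a mean of at least 1 CPM. For ARF5 there were 133 such genes, with a median H9 log2 fold change of -0.52 and a range from the 5th to the 95th percentile of -0.86 to 0.16. ARF5 differed from their median by -1.04. Only CD79B, at -1.56 with a mean of 2.88 CPM in the controls and 0.973 with shRNA, lay lower. The next one, DTYMK, stood at -1.05, and both genes were singled out after their values were seen.

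ARF6 was far from genes of its composition in another way. Its 499 like genes had a median of 0.93, with percentiles from -0.14 to 1.65, so a typical transcript that is long and poor in G and C was higher with shRNA while ARF6 was lower. ARF6 differed from that median by -1.40, the largest distance of any member, and 5 of the 499 lay below it. ARF3 differed by -0.44 from the median of its 327 like genes, 28 of which lay below it.

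ARF4 and ARF1 sat among their like genes. ARF4 at 0.14 compares with a median of 0.41 over 182 genes, 47 of which lay below it. ARF1 at -0.26 compares with a median of -0.38 over 393 genes, 261 of which lay below it. In HEK293T the members lay within 0.05 of the medians of their like genes, with differences of 0.02 for ARF1, 0.00 for ARF3, -0.02 for ARF4, 0.05 for ARF5 and 0.02 for ARF6.

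A fit in which each library's trend on GC content and length was removed gave another picture of the family in H9. ARF5 stood at -0.98, or 50.6% of control, and ARF6 at -1.23, or 42.5% of control, so ARF6 and not ARF5 was the lowest member. ARF3 stayed at a similar value, -0.57. ARF4 stood at -0.43 instead of 0.14, and ARF1 at 0.07 instead of -0.26, so both changed sign. In this fit 4 of 5 members were lower with shRNA, as without it, but ARF4 took the place of ARF1. ARF5, chosen for being lower, is among these. Of all genes tested, 49.8% were called in this fit and 28.3% were called lower, with a median log2 fold change of -0.02.

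The members were also compared between the control groups of the lines. This comparison sets H9 with control shRNA against HEK293T with arsenite and control siRNA, so line, arsenite and kind of control RNA cannot be told apart. ARF3 was higher in H9, at 988 and 993 against 370 and 368 CPM, a log2 difference of 1.43 ± 0.031 (adjusted p = 9.3e-31, edgeR). ARF1 was lower, at 741 and 742 against 1558 and 1498 CPM, a log2 difference of -1.04 ± 0.030 (adjusted p = 6.8e-27, edgeR). Neither pair of groups overlapped, and the class I partners differed in opposite directions.

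ARF5 was higher in the H9 controls, at 364 and 375 against 243 and 251 CPM, a log2 difference of 0.58 ± 0.033, which is given without a test because the H9 control level of ARF5 entered the choice of the family. With the trend on GC content and length removed this difference was -0.12, the opposite direction. ARF4 differed by 0.08 ± 0.036 (adjusted p = 0.048, edgeR), which upper-quartile scaling turned to -0.08 (adjusted p = 0.038), while that scaling moved the median over all genes tested from 0.00 to -0.16. Without HEK293T control replicate 2 it was 0.06 (adjusted p = 0.18), and without H9 control replicate 1 or replicate 2 it was 0.08 (adjusted p = 0.10 each). Leaving out HEK293T siRNA replicate 1 or replicate 2, which enter only the shared spread, also ended the call (adjusted p = 0.061 and 0.060). With the trend on GC content and length removed, ARF4 differed by 0.33 ± 0.036 (adjusted p = 1.3e-10, edgeR), more than in the main fit. ARF6 differed by -0.06 ± 0.042 (adjusted p = 0.21, edgeR), and by -0.21 with upper-quartile scaling (adjusted p = 1.5e-05). Of the 4 members other than ARF5, 3 were called, where 83.5% of all genes tested were.

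The summed level of the 5 members was 1207.1 and 1182.5 CPM per kb in the HEK293T controls and 1204.3 and 1213.4 with siRNA. It was 1063.3 and 1074.5 in the H9 controls and 714.8 and 722.0 with shRNA. The sum was lower in the H9 shRNA libraries than in every other library. ARF5, chosen for its fall in H9, is part of this sum. The lower sum and the shifts of the shares in H9 thus follow partly from the choice and are no separate result. ARF1 gave 63.15 to 64.34% of the sum in HEK293T, 34.73 and 34.44% in the H9 controls and 43.10 and 42.97% with shRNA.

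ARF5 gave 18.28 and 19.27% of the sum in the HEK293T controls and 19.16 and 18.30% with siRNA. In H9 its share was 31.03 and 31.61% in the controls and 15.97 and 15.61% with shRNA. ARF4 went from 9.31 and 9.16% to 15.04 and 15.28%, so the class II partners stood at nearly the same share in the shRNA libraries. A share can rise without the level: with shRNA the level of ARF4 was 110% of control and that of ARF1 83.6%. ARF3 kept 22.52 to 22.63% in the controls and 23.48 to 23.65% with shRNA, and ARF6 gave 2.05 to 2.49% in every library. These shares depend on the transcript length used. With the median length of the protein-coding transcripts, ARF3 gave 59.75 and 59.56% of the sum in the H9 controls, and ARF5 gave 18.46 and 18.84% there and 9.48 and 9.23% with shRNA. The sum was then 2391.1 and 2411.9 CPM per kb in the H9 controls and 1610.9 and 1632.7 with shRNA, against 1735.0 to 1772.0 in HEK293T.

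**Figure D4:**
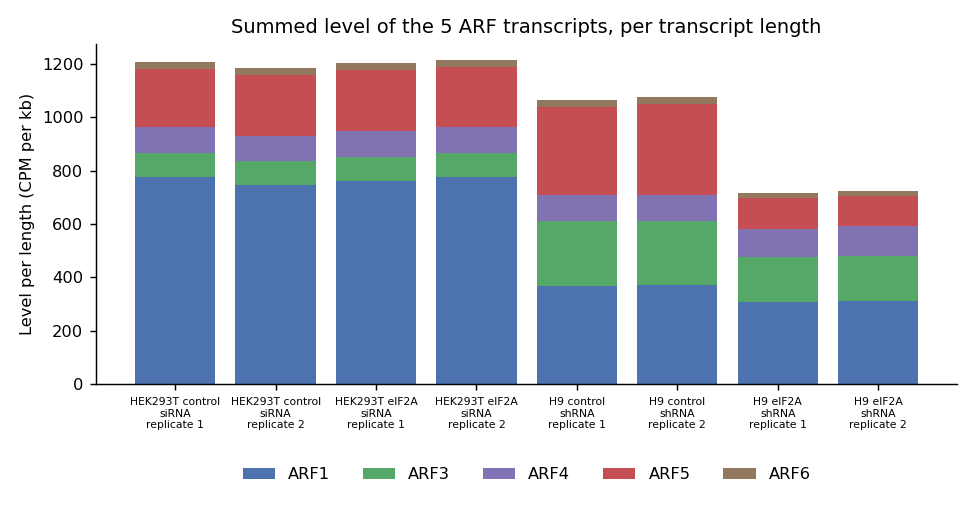
Summed level of the 5 ARF members in each of the 8 libraries, in CPM per kb on an axis that starts at 0, with each member's part stacked. The stacks of the H9 shRNA libraries reach 714.8 and 722.0 against 1063.3 and 1074.5 in the H9 controls, and the ARF5 part shrinks from 31.03 and 31.61% to 15.97 and 15.61%.

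Genes with the level pattern most like each member over all 8 libraries were ranked by the root mean square of the difference in centred log2 CPM, among 12956 genes. For ARF5 the nearest were QDPR at 0.184, SLC35B2 at 0.205, PSPH at 0.211 and SARM1 at 0.214. ARF5 was chosen for its fall in H9, which enters these distances, so few near genes follow from the choice and are no separate result. For the other members the 2 nearest genes lay at 0.026 to 0.046, with YBX3 and TROAP for ARF1, FLOT2 and NQO2 for ARF3, CTTN and LANCL2 for ARF4, and GLRX5 and RPL19 for ARF6. Between members the distance ran from 0.306 for ARF4 and ARF6 to 1.177 for ARF1 and ARF3. The closest paralog of ARF5 was ARF6, at 0.392. The 8 libraries share 4 groups, so these distances are descriptions.

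The rest of the ARF machinery was read from 6 lists that hold 120 genes. They cover ARF-like GTPases, exchange factors, GTPase-activating proteins, the COPI coat with its cargo receptors, clathrin and related adaptors, and lipid and tethering effectors. Of these, 119 were tested, and ARL14 had no reads. In HEK293T, 22 rose, 19 fell and 78 were not called, with a median log2 fold change of 0.00, the same as over all genes tested. That is 18.5% higher and 16.0% lower, against 14.1% and 14.7% of all genes tested. The count of 41 called genes was 27 with DESeq2 and 27 without HEK293T siRNA replicate 2.

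In H9, 59 of the 119 rose, 44 fell and 16 were not called, with a median of 0.15 against 0.02 over all genes tested. That is 49.6% higher and 37.0% lower, against 37.0% and 34.3% of all genes tested. With DESeq2's size factors 49 were higher and 51 lower, while all genes tested moved to 4553 higher and 6124 lower. Of the called genes, 49.0% were higher in the lists and 42.6% over all genes, against 57.3% and 51.9% with TMM factors. With the trend on GC content and length removed, 29 rose and 38 fell, with a median of -0.01, against 21.4% higher and 28.3% lower of all genes tested. For the difference between the lines 51 were higher and 33 lower in H9, against 31.1% and 27.0% of all genes tested. With DESeq2's size factors 42 were higher and 46 lower, and over all genes tested 3730 were higher and 5051 lower. Higher genes then made up 47.7% of those called in the lists and 42.5% over all genes. Removal of the trend gave 25 higher and 32 lower for this difference, and 2635 higher and 3582 lower over all genes tested. The higher part of the called genes was then 43.9% in the lists and 42.4% over all genes.

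**Figure D5:**
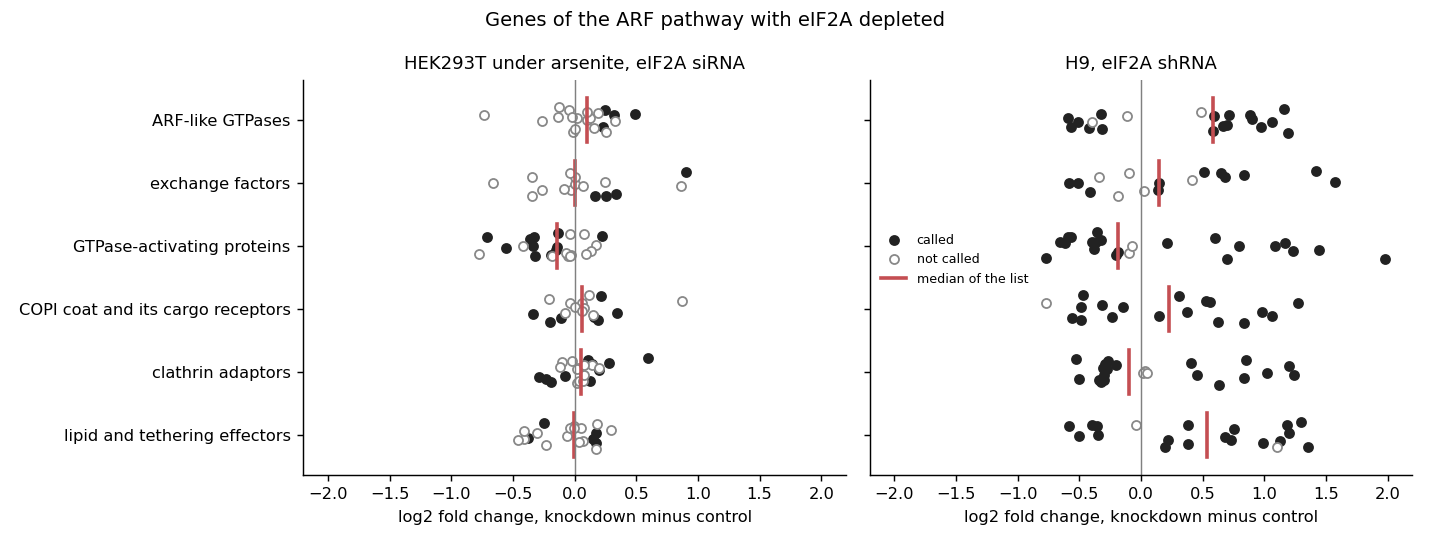
Log2 fold change with eIF2A knockdown of the 119 tested genes of 6 ARF pathway lists, in HEK293T under arsenite and in H9; each point is a gene and each line the median of a list. H9 medians run from -0.19 for GTPase-activating proteins to 0.58 for ARF-like GTPases, and HEK293T medians from -0.14 to 0.10. With the trend on GC content and length removed (not drawn), the H9 medians run from -0.03 for exchange factors to 0.09 for lipid and tethering effectors. GTPase-activating proteins and ARF-like GTPases then both stand at -0.01.

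Exchange factors, which load ARFs with GTP, rose in 4 of 16 genes in HEK293T and fell in 0. In H9, 8 rose and 3 fell, and 4 rose and 3 fell with the trend removed. ARFGEF2, which activates class I ARFs at the trans-Golgi, read 7.46 and 7.36 CPM with control shRNA and 23.1 and 20.8 with eIF2A shRNA, a rise of 1.57 ± 0.097 (adjusted p = 4.1e-16, edgeR). Its relative ARFGEF1 rose by 1.42 ± 0.092 in H9 (adjusted p = 1.2e-15, edgeR). Trend removal left 0.59 for ARFGEF2 and 0.38 for ARFGEF1, both still called (adjusted p = 4.1e-06 and 0.00069).

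IQSEC2 and PSD, exchange factors for ARF6, were the 2 taken for their p in HEK293T. IQSEC2 read 17.6 and 15.7 CPM with control siRNA and 19.5 and 19.9 with eIF2A siRNA, and rose by 0.26 ± 0.072 (adjusted p = 0.0057, edgeR). It fell by 0.52 ± 0.049 in H9 (adjusted p = 1.5e-11). PSD rose by 0.90 ± 0.27 in HEK293T (adjusted p = 0.0099) from only 0.925 CPM, and stood at -0.19 ± 0.14 in H9 (adjusted p = 0.23), where DESeq2's size factors gave a call at -0.34 (adjusted p = 0.022). The HEK293T call of IQSEC2 was lost without control replicate 2 (0.17, adjusted p = 0.17). That of PSD was lost without control replicate 2 (0.77, adjusted p = 0.094) and without siRNA replicate 2 (0.57, adjusted p = 0.24).

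Among the GTPase-activating proteins, which switch ARFs off, 1 of 23 rose and 10 fell in HEK293T. In H9, 9 rose and 12 fell, and 7 rose and 9 fell with the trend removed. As shares, higher and lower, HEK293T had 4.35% and 43.5% (all genes tested: 14.1% and 14.7%). H9 had 39.1% and 52.2% (all genes: 37.0% and 34.3%), or 30.4% and 39.1% with the trend removed (all genes: 21.4% and 28.3%). ARAP1, a multidomain member of the group, read 126 and 124 CPM with control siRNA and 99.9 and 99.4 with eIF2A siRNA, and fell by 0.33 ± 0.038 (adjusted p = 3.3e-08, edgeR). In H9 it fell by 0.40 ± 0.037 (adjusted p = 9.5e-12). ACAP3, a relative of the ARF6-directed ACAP proteins, fell by 0.36 ± 0.053 in HEK293T and by 0.38 ± 0.058 in H9 (adjusted p = 2.1e-06 and 4.7e-07), the latter -0.16 with the trend removed (adjusted p = 0.019).

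ACAP2, which acts on ARF6, rose by 1.98 ± 0.16 in H9, from 3.64 and 2.32 CPM to 11.8 and 11.9 (adjusted p = 1.1e-12, edgeR). The rise was 0.88 with the trend removed (adjusted p = 2.1e-05) and 1.70 to 2.35 with 1 library left out. In HEK293T it fell by 0.56 ± 0.19 (adjusted p = 0.030). That HEK293T call was lost without control replicate 1 (-0.26, adjusted p = 0.42), without siRNA replicate 1 (-0.66, adjusted p = 0.071) and without siRNA replicate 2 (-0.46, adjusted p = 0.21), by DESeq2 and limma-voom (adjusted p = 0.062 and 0.066), and with the trend removed (-0.47, adjusted p = 0.064). ASAP1, a GTPase-activating protein of focal adhesions, rose by 1.23 ± 0.083 in H9 (adjusted p = 2.9e-15), or 0.40 with the trend removed (adjusted p = 0.00010), and stood at -0.03 ± 0.099 in HEK293T (adjusted p = 0.87).

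The COPI coat, which ARF1 recruits to the Golgi, had 4 genes up and 3 down of 18 in HEK293T and 10 up and 7 down in H9, or 6 up and 7 down with the trend removed. As shares, higher and lower, HEK293T had 22.2% and 16.7% (all genes tested: 14.1% and 14.7%). H9 had 55.6% and 38.9% (all genes: 37.0% and 34.3%), or 33.3% and 38.9% with the trend removed (all genes: 21.4% and 28.3%). ARCN1, the delta subunit of the coat, rose in both lines. It read 89.0 and 89.9 CPM with control siRNA and 112 and 115 with eIF2A siRNA (0.35 ± 0.040, adjusted p = 2.3e-08, edgeR), and 60.8 and 60.7 CPM with control shRNA and 107 and 110 with eIF2A shRNA (0.84 ± 0.044, adjusted p = 4.6e-18). Its H9 rise was 0.12 with the trend removed (adjusted p = 0.018). The beta subunits COPB1 and COPB2 rose in H9 by 1.27 ± 0.068 and 1.06 ± 0.061 (adjusted p = 1.1e-17 and 5.4e-17), and stood at -0.04 ± 0.075 and 0.12 ± 0.057 in HEK293T (adjusted p = 0.78 and 0.13). With the trend removed they rose by 0.45 and 0.40 in H9 (adjusted p = 9.6e-07 and 4.9e-07).

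Clathrin adaptors and the related AP-4 complex are brought to the trans-Golgi and endosomes by ARF1 and its relatives. This list had 6 genes up and 4 down of 22 in HEK293T. In H9 it had 8 up and 11 down, or 4 up and 7 down with the trend removed. AP3D1 and AP3S1, the delta and sigma subunits of the AP-3 complex, went apart in HEK293T. AP3D1 fell by 0.29 ± 0.030, from 597 and 598 CPM to 493 and 483 (adjusted p = 3.1e-09, edgeR), and AP3S1 rose by 0.59 ± 0.063, from 19.3 and 19.1 CPM to 28.7 and 29.3 (adjusted p = 5.8e-09). In H9 AP3D1 fell by 0.20 ± 0.031 (adjusted p = 3.6e-07), or -0.10 with the trend removed (adjusted p = 0.0042), and AP3S1 stood at 0.02 ± 0.059 (adjusted p = 0.83), which became -0.14 with DESeq2's size factors and -0.40 with the trend removed. AP3B1, the beta subunit, and AP4E1, of the AP-4 complex, rose in H9 by 1.2 ± 0.086 and 1.24 ± 0.18 (adjusted p = 1.5e-14 and 1.5e-07), which became 0.36 (adjusted p = 0.00064) and 0.16 (adjusted p = 0.50, not called) with the trend removed.

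Of the ARF-like GTPases, relatives with their own membranes and partners, 4 of 20 rose and 0 fell in HEK293T, and 11 rose and 6 fell in H9, or 3 rose and 6 fell with the trend removed. ARL3, which releases lipid-anchored cargo in cilia, rose in HEK293T from 34.2 and 38.0 CPM to 44.0 and 42.0 (0.25 ± 0.056, adjusted p = 0.00088, edgeR) and fell in H9 from 45.9 and 46.2 CPM to 38.1 and 35.7 (-0.32 ± 0.059, adjusted p = 1.2e-05, and -0.62 with the trend removed).

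Lipid and tethering effectors rose in 3 and fell in 2 of 20 genes in HEK293T, and rose in 13 and fell in 5 in H9, or 5 and 6 with the trend removed. PLD2, a phospholipase D that makes phosphatidic acid, fell in both lines, by 0.38 ± 0.050 in HEK293T and 0.40 ± 0.047 in H9 (adjusted p = 3.4e-07 and 2.3e-09, edgeR). RAB11FIP3, which binds both RAB11 and ARF proteins, fell by 0.25 ± 0.045 and 0.36 ± 0.042 (adjusted p = 4.2e-05 and 2.3e-09). ARFIP1, a curved membrane-binding effector, and GOLGA4, a trans-Golgi tether, rose in H9 by 1.30 ± 0.13 and 1.35 ± 0.20 (adjusted p = 4.4e-11 and 3.1e-07). With the trend removed in H9, PLD2 stood at -0.18 and RAB11FIP3 at -0.21 (adjusted p = 0.00089 and 7.4e-05), ARFIP1 at 0.47 (adjusted p = 0.0023) and GOLGA4 at 0.24, which was not called (adjusted p = 0.36).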

How the data were processed

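TRIzol extraction and the TruSeq Stranded mRNA kit are named per the labels' protocols. The submitters' processing notes list cutadapt, STAR 2.5.2b and hg19. Raw counts per RefSeq accession were deposited. Which program counted the reads, with which strand setting and annotation, is not given in the sources used here. The 5 special counters in each table were kept out of library sizes: reads without a feature made up 14.95 to 20.84% of those listed and multiply aligned reads 4.11 to 4.54%. Symbols came from RefSeq for 18888 accessions and from GENCODE for 223, leaving 194 unnamed. Coordinates were left out, since the annotation used here is of another build.

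The main test was the robust quasi-likelihood F test of edgeR 4.0.16 in R 4.3.3, two-sided, with filterByExpr, TMM and 4 group means over 8 libraries (4 residual degrees of freedom). P-values were adjusted by the Benjamini-Hochberg method over 14565 genes and called under 0.05. SE came from the F statistic. GC content and length came from GENCODE 29 transcripts and their trend was fitted per library with mgcv 1.9-3 and entered as offsets. The fits were tested on simulated data. Replicates differed by more than sampling noise (chi-square per degree of freedom 4.91 in the HEK293T controls and 1.35 to 1.80 in the other groups).

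Alternatives were the size factors of DESeq2, upper-quartile scaling, no filter, 5 CPM in 2 libraries as a filter, the test of DESeq2 1.42.0, limma-voom (limma 3.58.1), each line alone, removal of the GC and length trend, a block for the set number, leaving out each library in turn, and a threshold of 0.01. Named were the members, EIF2A and, from each pathway list, the 2 genes with the smallest p in HEK293T and the 2 with the largest change in H9, at a mean of at least 1 CPM. Some genes that this rule took are not reported here. The members and lists were chosen with earlier results of these data known.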

Additional observations from a re-analysis of the deposited data

Results flagged for a closer look

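For 15 of the 20 ARF pathway genes named, the knockdown changes differed between the lines by edgeR's test of the difference (H9 minus HEK293T, on the log2 scale, adjusted over all genes tested, 58.1% of which were called). The genes were named for a small p in HEK293T or a large change in H9, so this count is no independent evidence of a difference. The difference was 2.54 for ACAP2 (adjusted p = 4.2e-10), 1.81 for GOLGA4 (2.0e-06), 1.76 for ARFGEF1 (9.9e-08), 1.33 for ARFIP1 (3.4e-07), 1.32 for ARFGEF2 (6.7e-09) and 1.30 for COPB1 (5.7e-13). It was 1.26 for both ASAP1 (3.0e-10) and AP4E1 (0.00038), 1.17 for AP3B1 (4.7e-09), 0.94 for COPB2 (1.1e-11) and 0.49 for ARCN1 (8.4e-09). It was negative for PSD at -1.09 (0.0023), IQSEC2 at -0.77 (1.8e-09), AP3S1 at -0.58 (5.5e-07) and ARL3 at -0.56 (2.9e-07).

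With the trend on GC content and length removed, GOLGA4 (0.64, adjusted p = 0.078), ARFGEF2 (0.32, 0.097) and AP4E1 (0.12, 0.80) no longer passed. ARCN1 turned to -0.18 (0.014). The difference of ARL3 was -0.85 (3.1e-11) in that fit and that of ACAP2 1.35 (3.2e-05).

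In both HEK293T siRNA libraries ARF6 stood above its controls, by 0.06 ± 0.041 (SE), which was not called (adjusted p = 0.35, edgeR). In both H9 shRNA libraries ARF6 stood below the H9 controls. Of all genes tested, 58.8% had no overlap in HEK293T and 84.9% in H9, so the opposite sides alone say little about ARF6. The difference of -0.52 was not tested because the H9 values chose the members.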

How the results depend on the processing

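The ARF5 change in H9 was -1.72 with DESeq2's size factors and in DESeq2's own fit, -1.49 with upper-quartile scaling, -1.51 with the 5 CPM filter, -0.98 without the trend on GC content and length, block or not, and -1.58 to -1.54 with 1 library left out. Its distance from genes of like composition was -1.05 to -1.02 with 1 library left out. Members called with 1 library left out numbered 0 to 1 in HEK293T and, of the 4 other than ARF5, 2 to 3 between the controls. The 41 pathway genes called in HEK293T were 27 with DESeq2 and 27 to 41 with 1 library left out. The 103 called in H9 were 67 with the trend removed, 66 with the block as well, and 96 to 103 with 1 library left out. The 84 that differed between the lines were 53 with both and 78 to 83 with 1 library left out. Values that changed sign in H9 were ARF1 at 0.07 and ARF4 at -0.43 (trend removed, with or without the block), ARF4 at -0.02 (DESeq2's size factors and DESeq2), and AP3S1 at -0.14 (DESeq2's size factors) and -0.40 (trend removed, with or without the block). Between the controls they were ARF4 at -0.08 (upper quartile) and ARF5 at -0.12 (trend removed). The cause was not tested. Same-numbered sets of a line did not deviate together (correlation of set differences -0.02 in HEK293T and 0.05 in H9 over 12957 genes). Libraries can be paired without such a shared deviation, so whether the set numbers pair them stays unknown. With the replicate block, 0 members and 39 pathway genes were called in HEK293T, 102 pathway genes in H9, and 84 between the lines. With 2 libraries a group, the spread rests on few libraries, and the part of depth in the precision of the members was not tested.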
